A study of Mus musculus with 6 samples.

Results

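The keratin-associated protein genes (Krtap) were followed in RNA of mouse ear skin taken on postnatal day 21. Members were all rows of the deposited table whose symbol begins with Krtap and a digit, which gave 50 of 18482 genes, and 0 of these rows repeated the values of another member. In lecko mice Kdr, which encodes VEGFR2, was deleted in the lymphatic vessels after tamoxifen, and littermates served as controls. Control mice carry the tamoxifen label too, and each group held 3 libraries of polyadenylated RNA. The labels give no strain, no Cre driver and no sex for these mice, and they list more than 1 tamoxifen schedule without saying which applied here.

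Keratin-associated proteins fill the space between the keratin filaments of the hair shaft and cross-link them, largely through cysteine bonds. They are made by differentiating cells of the hair follicle while a hair is being built, after the hair keratins, and follicles that rest produce little of their RNA. The family is divided into high sulfur and ultra-high sulfur proteins, which differ in cysteine content, and high glycine-tyrosine proteins.

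Each gene consisted of a single exon in GENCODE vM21 (50 of 50), and the classes were taken from the codons of its coding sequence. A gene with at least 35% glycine and tyrosine codons was placed in the high glycine-tyrosine class (16 genes), and one of the remaining genes with at least 30% cysteine codons in the ultra-high sulfur class (16 genes). The other 18 genes formed the high sulfur class. By this rule Krtap5-2, Krtap5-3 and Krtap28-13 counted as high glycine-tyrosine although cysteine codons made up 34.6, 35.1 and 42.8% of their codons, and Krtap7-1, with 29.9% glycine and tyrosine codons, counted as high sulfur. On GRCm38.p6 the genes lay in clusters, 21 on chromosome 11, 21 on chromosome 16, 4 on chromosome 7, 3 on chromosome 10 and 1 on chromosome 1.

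The coding sequences below show what sets the classes apart, and why the reads of 1 pair of genes could not be assigned by their coding part. Capitals mark cysteine codons in Krtap3-2, Krtap3-3 and Krtap4-7, and glycine and tyrosine codons in Krtap8-1. Krtap3-2 (high sulfur, chr11:99556501-99556800, minus strand) and Krtap3-3 (chr11:99550510-99550809, minus strand) had the same 300 coding bases, with 0 mismatches. Krtap4-7 (ultra-high sulfur, chr11:99643886-99644035, minus strand) is shown for its first 150 bases (all from GENCODE vM21 on GRCm38), and Krtap8-1 (high glycine-tyrosine, chr16:89487722-89487907, minus strand) whole.
Krtap3-2 and Krtap3-3: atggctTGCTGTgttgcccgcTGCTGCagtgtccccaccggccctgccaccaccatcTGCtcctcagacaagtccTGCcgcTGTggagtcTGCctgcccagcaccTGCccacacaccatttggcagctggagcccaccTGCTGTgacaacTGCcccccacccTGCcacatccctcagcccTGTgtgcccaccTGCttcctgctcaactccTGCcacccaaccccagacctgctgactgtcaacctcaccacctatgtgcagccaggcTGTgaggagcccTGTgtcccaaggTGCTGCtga
Krtap4-7: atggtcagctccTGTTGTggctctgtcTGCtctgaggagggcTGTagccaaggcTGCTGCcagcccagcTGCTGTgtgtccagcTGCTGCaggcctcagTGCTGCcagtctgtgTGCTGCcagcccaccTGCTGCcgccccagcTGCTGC
Krtap8-1: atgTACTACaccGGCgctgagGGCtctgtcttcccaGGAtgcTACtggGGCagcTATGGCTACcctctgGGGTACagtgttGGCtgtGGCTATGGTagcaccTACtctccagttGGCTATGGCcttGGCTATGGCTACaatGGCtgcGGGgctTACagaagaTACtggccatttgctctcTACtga
Cysteine codons stood mostly in pairs in this stretch of Krtap4-7, whereas most were single in the Krtap3-2 sequence. Outside the coding sequence Krtap3-2 and Krtap3-3 could be told apart. Their parts after the stop codon were 678 and 380 bases long, with an identity of 42.3%, and their parts before the start codon had an identity of 87.5%. Shorter stretches were shared more widely, as 28 of the 50 members had 50-base stretches of transcript that also occurred in another member. Such stretches made up 16.9% of those in Krtap4-1 and 11.7% of those in Krtap6-1.

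Total estimated counts before rounding were 17242921 to 17825135 per library. Kdr, which checks the labels, fell from 34.2 ± 3.81 to 10.4 ± 0.732 CPM (counts per 1e6 after scaling between libraries, mean ± SD, n = 3 per group). Its log2 fold change was -1.72 (SE 0.10, Benjamini-Hochberg adjusted p = 0.000258, edgeR quasi-likelihood). The labels do not name the animal of each library, so a p-value here reflects only how far these libraries scatter. Summed counts of 4 Y-linked genes came to 242 and 265 per 1e6 counts in controls 2 and 3 and to 0.224 to 1.19 in control 1 and the lecko libraries, so the libraries above a threshold of 10 CPM were both controls. Values within the libraries below that threshold are given beside the results. A fit with the Y-linked class as a covariate therefore compares the lecko libraries with control 1 alone.

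Most of the family had little RNA in this skin. Of the 50 genes, 12 had fewer than 10 estimated counts over all 6 libraries, 24 had 10 to under 50, and 14 had at least 50. Krtap3-2 alone held 56.8% of the family's counts. Per length it stood at 24.1 CPM per kilobase of transcript, averaged over the 6 libraries, whereas the next genes, Krtap8-1 and Krtap3-3, stood at 2.38 and 2.30 CPM per kilobase. Krtap3-2 therefore hides the rest of the family in a plain sum, and the other 49 genes were also summed without it, a choice made after the values were seen.

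The 49 genes without Krtap3-2 differed several-fold between libraries of the same group. Their counts summed to 474 in control 1, 68.6 in control 2 and 260 in control 3, and to 432 in lecko 1, 224 in lecko 2 and 529 in lecko 3. Exact 95% Poisson intervals, which cover counting error only, were 432 to 519, 53.3 to 86.9 and 230 to 294 for controls 1 to 3, and 392 to 475, 196 to 256 and 484 to 576 for lecko 1 to 3. Lecko 3 and control 1 were highest and their intervals overlapped, as did those of control 1 and lecko 1 and those of control 3 and lecko 2, while control 2 lay below every other library. In CPM, control 1 was 6.93 times control 2, and lecko 3 was 2.36 times lecko 2.

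Between the groups the sums overlapped. The 49 genes together gave 15.4 ± 11.7 CPM (controls) and 22.4 ± 8.83 CPM (lecko; mean ± SD of 3 libraries), with coefficients of variation of 76.1 and 39.5%. The difference of the mean log2 sums was 0.85 (lecko minus control), against a pooled within-group SD of 1.11, so it was smaller than the spread between replicates. Without control 2 this difference was 0.06, without control 1 it was 1.46, without control 3 1.02, without lecko 2 1.21 and without lecko 3 0.59. Among the 4 libraries below the Y-linked threshold, control 1 gave 27.3 CPM and the lecko libraries 24.4, 12.7 and 29.99 CPM. With the Y-linked class as a covariate, and so against control 1 alone, the log2 difference was -0.38. No p is given for these sums, since the genes were chosen with earlier results known. In bulk tissue, fewer cells that build hair and less RNA per such cell cannot be told apart.

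**Figure D1:**
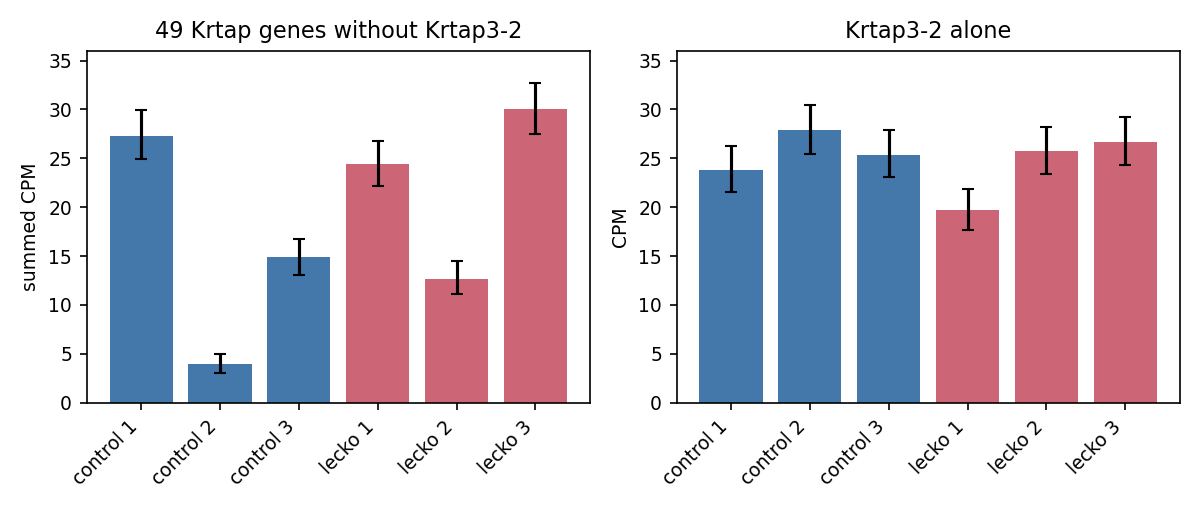
Summed CPM of the 49 Krtap genes without Krtap3-2 (left) and CPM of Krtap3-2 alone (right) in each library, controls in blue and lecko in red, with exact 95% Poisson intervals that cover counting error only. The sum on the left runs from 3.94 CPM in control 2 to 29.99 CPM in lecko 3, while Krtap3-2 stays between 19.7 and 27.9 CPM.

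Krtap3-2 did not follow the rest of the family. Its estimated counts were 413, 484 and 444 in controls 1 to 3 and 349, 455 and 470 in lecko 1 to 3, so control 2, lowest for the sum of the other genes, was highest for Krtap3-2. The gene gave 25.7 ± 2.03 CPM in controls and 24.0 ± 3.796 CPM in lecko libraries, as mean ± SD of 3. Its log2 fold change was -0.09 (SE 0.12, Benjamini-Hochberg adjusted p = 0.845, edgeR quasi-likelihood). Krtap3-3, its copy in coding sequence, had 37.8, 17.6 and 34.6 counts in controls and 26.2, 22.5 and 39.6 in lecko libraries. The counts of both genes were not whole numbers, yet the pair together summed to whole numbers, 451, 502 and 479 in controls and 375, 477 and 510 in lecko libraries. The pooled pair gave 27.4 ± 1.43 and 25.7 ± 4.05 CPM (SD, n = 3 each), near the values of Krtap3-2 alone. Krtap3-1, the gene next to this pair, has a coding sequence 82.8% identical to that of Krtap3-2 but was low in control 2, with 16, 2 and 5 counts in controls and 17, 16 and 18 in lecko libraries. By RefSeq coordinates Krtap3-2 overlapped no other gene, as was so for 41 of the 50 members.

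Only 15 of the 50 genes had enough counts to be tested, 6 high sulfur, 6 high glycine-tyrosine and 3 ultra-high sulfur. With p-values adjusted over all 14856 tested genes (edgeR quasi-likelihood, Benjamini-Hochberg), 0 of the 15 passed in either direction. Of all tested genes 0.0202% passed, 0.0135% higher and 0.00673% lower in lecko skin. The adjusted p-values of the 15 ran from 0.596 to 0.993, and 0 had an unadjusted p under 0.05, against 8.56% of all tested genes. DESeq2 and limma-voom also called 0 members (0.215 and 0.0202% of all tested genes passed). DESeq2 leaves genes of low mean count without an adjusted p, and of the 15 only Krtap3-2, Krtap3-3, Krtap1-5 and Krtap8-1 received one. The other tested members could therefore not be called by DESeq2. An unadjusted p under 0.05 was reached by 0 members with DESeq2 and 2 with limma-voom, beside 6.52 and 8.97% of all genes by these tools. The log2 fold changes of the 15 genes ran from -0.09 to 1.54, with standard errors of 0.12 to 1.11. Of these values 12 were positive, and their median was 0.62, beside 0.01 over all genes tested. With the Y-linked class as a covariate, which sets the lecko libraries against control 1 alone, 5 of the 15 were positive and the median was -0.10. Control 1 was the highest control for 14 of these 15 genes. Without control 2 the median over the 20 members then tested was 0.15. A gene can pass the filter on low counts through the group where it is high, so these medians are a description of the genes that passed. The groups did not overlap for 1 of the 15, Krtap4-7, which was higher in lecko skin. Groups did not overlap for 14.6% of all tested genes, 7.37% higher and 7.23% lower.

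Among the high glycine-tyrosine genes, whose small proteins are made in the cortex of the shaft, Krtap8-1 had 30, 3 and 22 counts in controls 1 to 3 and 38, 9 and 42 in lecko 1 to 3. Krtap6-5 had 21, 5 and 14 counts in controls and 24, 11 and 31 in lecko libraries. Krtap21-1 had 18, 3 and 12 counts in controls and 20, 7 and 38 in lecko libraries. In all 3 genes control 2 was lowest of the controls and lecko 2 lowest of the lecko libraries, and the groups overlapped. In CPM, Krtap8-1 was at 1.05 ± 0.798 in controls and 1.68 ± 1.02 in lecko skin, a log2 fold change of 0.67 (SE 0.77). The log2 fold changes of Krtap6-5 and Krtap21-1 were 0.70 (SE 0.52) and 0.95 (SE 0.70). Without control 2 the values of Krtap8-1, Krtap6-5 and Krtap21-1 were 0.17, 0.30 and 0.50, and with the Y-linked covariate -0.04, 0.04 and 0.24. Krtap6-2 had 16, 1 and 15 counts in controls and 20, 6 and 17 in lecko libraries, and Krtap6-1 had 14, 2 and 7 against 16, 8 and 12. Krtap19-9b had 10, 0 and 10 counts in controls and 10, 7 and 12 in lecko libraries. Its log2 fold change was 0.51 with all libraries and -0.07 without control 2. Krtap16-3 (10, 1 and 5 against 6, 5 and 19 counts) and Krtap22-2 (8, 2 and 5 against 11, 8 and 11 counts) were too low to be tested and had the same low control.

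Of the other high sulfur genes described here, all but Krtap15 had their lowest control value in control 2. Krtap1-5 had 38, 5 and 21 counts in controls and 25, 17 and 40 in lecko libraries, with 1.23 ± 0.952 and 1.55 ± 0.665 CPM (SD, n = 3 each). Krtap7-1 had 31, 0 and 14 counts in controls and 33, 6 and 28 in lecko libraries. Krtap7-1 thus ranged from 31 counts to 0 between controls of nearly equal depth, and a count of 0 allows up to 3 counts (0.172 CPM in control 2). Krtap15 split each group, with 14, 1 and 0 counts in controls and 15, 2 and 15 in lecko libraries. Krtap3-1 had the second smallest p of the 15 tested members, with a log2 fold change of 1.11 (SE 0.55, Benjamini-Hochberg adjusted p = 0.608, edgeR quasi-likelihood). Its control 1 (16 counts) lay at the level of the lecko libraries (16 to 18 counts), and with the Y-linked class as a covariate the log2 fold change was 0.06. Krtap9-3 (11, 2 and 3 against 10, 7 and 11 counts) and Krtap11-1 (6, 0 and 3 against 6, 6 and 16 counts) were not tested.

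Among the ultra-high sulfur genes, which are known from the cuticle and cortex of the shaft, Krtap4-7 had the largest log2 fold change of the 15 tested members, 1.54 (SE 0.72, Benjamini-Hochberg adjusted p = 0.596, edgeR quasi-likelihood). It had 12, 0 and 3 counts in controls and 17, 15 and 13 in lecko libraries. The lowest lecko library lay just above control 1. Without control 2 the log2 fold change was 0.96 (adjusted p = 0.534 by the same edgeR test), without control 1 it was 3.20, and with the Y-linked class as a covariate it was 0.29. Krtap4-1 had 19, 0 and 13 counts in controls and 18, 11 and 25 in lecko libraries. Krtap17-1 departed from this order within the controls, with 19, 8 and 6 counts, and had 12, 8 and 13 in lecko libraries, a log2 fold change of -0.02 (SE 0.48). Krtap4-2 (17, 2 and 7 against 10, 6 and 11 counts), Krtap4-16 (10, 1 and 3 against 8, 8 and 4), Krtap4-9 (13, 0 and 6 against 3, 1 and 9), Krtap9-1 (9.05, 0 and 0.66 against 4.91, 0 and 5.53) and Krtap4-6 (3, 3 and 3 against 4, 1 and 6) were not tested.

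**Figure D2:**
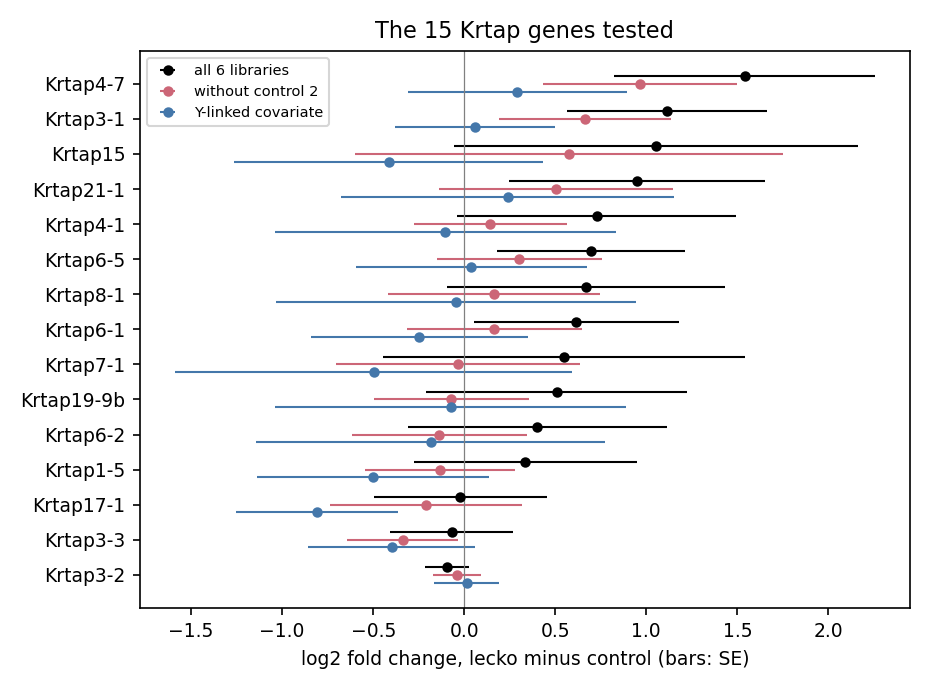
Log2 fold change, lecko minus control, with its SE for the 15 tested genes, from the fit on all 6 libraries (black), without control 2 (red) and with the Y-linked class as a covariate (blue). The blue fit sets the lecko libraries against control 1 alone. Most black points lie right of 0, and for Krtap6-2, Krtap7-1, Krtap19-9b and Krtap1-5 both other fits lie left of it.

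Counted over genes, the same libraries were low. Control 2 was the lowest control for 12 of the 15 tested genes, where it was so for 34.6% of all tested genes, and lecko 2 was the lowest lecko library for 13 of 15, beside 33.5% of all tested genes. Over all 50 genes, 26 had no count in control 2, against 8 in control 1, 11 in control 3 and 6, 10 and 5 in lecko 1 to 3. The genes share their libraries, so these counts describe the libraries and are no replicates of each other. The biological coefficient of variation, the spread within groups that edgeR estimates beyond counting error, had a median of 0.37 over the 15 tested genes, 0.09 over all tested genes, and 0.19 on the trend fitted at the abundance of these 15. It was 0.11 for Krtap3-2, the lowest of the 15, where the trend was also 0.11 after rounding, and 0.98 for Krtap7-1, the highest.

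**Figure D3:**
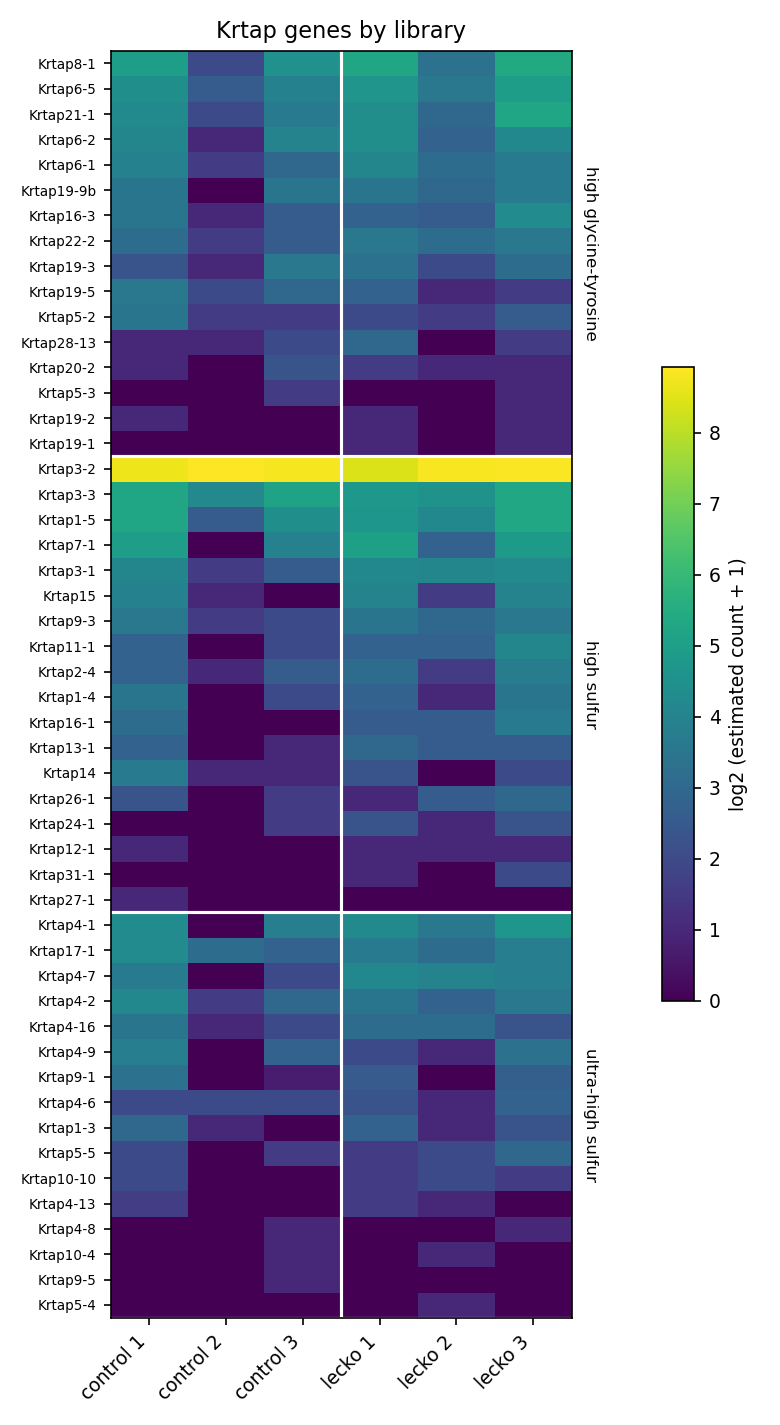
Estimated counts of the 50 genes in each library, as log2 of the count plus 1, grouped by class and ordered by mean CPM within each class. The control 2 column is dark for most genes in all 3 classes, with 26 genes at 0, and the Krtap3-2 row is bright throughout.

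All 3 classes and both large clusters were lowest in control 2. Control 1 was 6.48 times control 2 for the 16 high glycine-tyrosine genes, 6.84 times for the 17 high sulfur genes without Krtap3-2, and 7.83 times for the 16 ultra-high sulfur genes. It was 5.60 times for the 20 genes of chromosome 11 without Krtap3-2 and 9.505 times for the 21 genes of chromosome 16. The mixture of classes varied less. High glycine-tyrosine genes made up 32.7% of the counts of the 49 genes in control 1 (exact 95% binomial interval 28.5 to 37.1%), 34.8% in control 2 (23.7 to 47.2%) and 45.8% in control 3 (39.6 to 52.0%). In lecko 1 to 3 their share was 40.3% (35.6 to 45.1%), 30.4% (24.4 to 36.8%) and 38.4% (34.2 to 42.7%). Control 2, with the fewest counts, thus had a class mixture whose interval overlaps that of every other library, and control 3 exceeded control 1 and lecko 2 beyond counting error.

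Genes outside the family were compared if they were tested and had a mean log2 CPM of at least 1. The 4 of these most like the 49 genes in profile belong to the inner root sheath, the layer that moulds the growing hair. Genes of lower mean CPM, among them the hair keratins Krt81 and Krt33a, were not compared. Likeness was the root mean square difference between centred log2 CPM profiles over the 6 libraries, computed over 13581 genes. For the sum of the 49 genes the nearest were the keratins Krt25 (0.34), Krt71 (0.40) and Krt27 (0.40) and Tchh (0.37), which encodes trichohyalin, the granule protein of the inner root sheath, beside a median of 1.01 over all genes compared. Tchh was at 19.0, 5.58 and 9.82 CPM in controls 1 to 3 and 18.1, 11.1 and 22.8 CPM in lecko 1 to 3, and Krt25 at 5.19, 0.747 and 1.60 against 4.35, 2.77 and 6.58 CPM. Serpinb3a, P2rx1, Sprr2a2, Cxcr2, Prr9 and Nsl1 followed, at 0.65 to 0.70. For the sum of all 50 genes, which Krtap3-2 dominates and which varied only from 31.8 to 56.7 CPM, the nearest genes were others, led by Slc6a15 (0.07) and Gm42048 (0.07), followed by Gm5141, Tha1, Pask, Zmynd15, Nrg2, Cdh19 and C330018D20Rik.

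**Figure D4:**
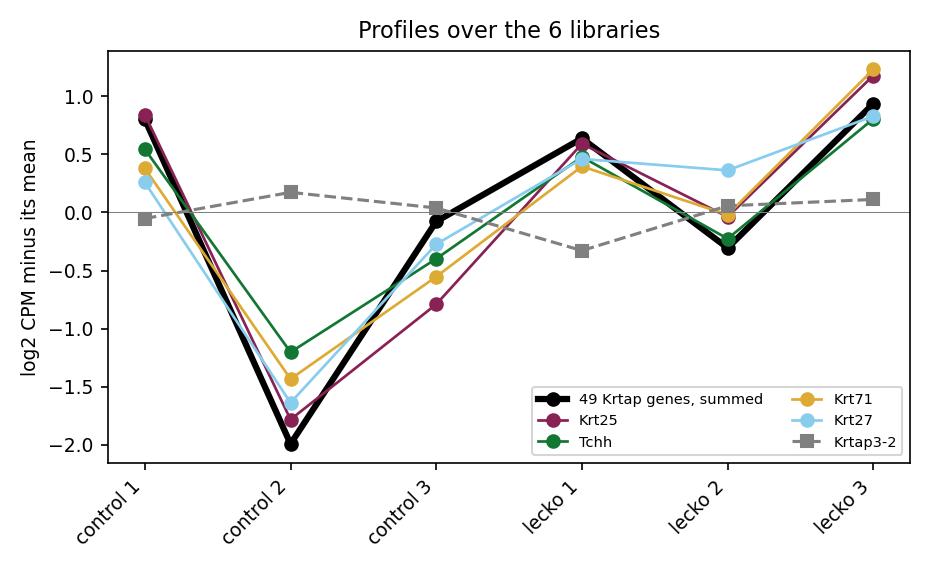
Log2 CPM minus its mean over the 6 libraries, for the sum of the 49 Krtap genes and for Krtap3-2. Also shown are the 4 genes nearest to the sum among those compared (Krt25, Tchh, Krt71 and Krt27). Lines join values of 1 gene and imply no order of libraries; the sum and its 4 nearest genes are lowest in control 2 (-1.99 for the sum), and Krtap3-2 is not.

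In the 8 lists of other hair follicle genes, edgeR, DESeq2 and limma-voom called 0 genes. Genes of low mean count, which DESeq2 leaves without an adjusted p, could not be called by it. By edgeR an unadjusted p under 0.05 was reached by 0 of 7 tested hair keratins, 1 of 9 inner root sheath genes, 1 of 6 other shaft genes, 0 of 6 companion layer and outer root sheath genes, 3 of 14 matrix regulators, 3 of 12 cycle signals, 0 of 8 stem cell genes and 1 of 11 dermal papilla genes, beside 8.56% of all tested genes. Of 16 listed hair keratins, 15 were in the table, 7 were tested and 0 were called, with a median log2 difference of 0.73. This median, like those of the lists below, describes only the genes that passed the filter on low counts. Their sum was carried by Krt84, at 46.8, 34.5 and 41.2 CPM (controls) and 27.3, 22.4 and 37.6 CPM (lecko; log2 fold change -0.49, SE 0.21, Benjamini-Hochberg adjusted p = 0.588, edgeR quasi-likelihood). The other 14 hair keratins summed to 11.6, 3.45 and 3.997 CPM (controls) and 8.97, 6.73 and 12.1 CPM (lecko), so control 1 and lecko 3 were again the highest of their groups. Unlike in the Krtap sum, control 3 lay near control 2, which was the lowest control for 8 of these 14 genes. Krt81 was at 1.31, 0.115 and 0.0571 CPM (controls) and 0.965, 0.862 and 1.28 CPM (lecko). Krt33a was at 1.27, 0.230 and 0.400 against 0.790, 0.452 and 1.03 CPM, and Krt32 at 2.31, 1.55 and 1.60 against 2.31, 2.04 and 2.33 CPM. Of the 13 inner root sheath genes, 12 were in the table, 9 were tested and 0 were called, with a median log2 difference of 0.78. The 7 inner root sheath keratins summed to 20.6, 5.92 and 9.65 CPM (controls) and 19.1, 15.04 and 29.3 CPM (lecko), with control 2 lowest and lecko 3 highest as for the Krtap sum, and Tgm3 and Gata3, which are also expressed elsewhere in the epidermis, made up most of the list's total. Of 9 other shaft genes 6 were tested and 0 called (median 0.02). Lrrc15, Selenbp1 and Psors1c2 had log2 fold changes of 0.25, 0.13 and -0.10, and Prr9, a gene of the differentiating shaft, was at 4.96, 2.53 and 2.34 CPM (controls) and 6.09, 4.13 and 5.85 CPM (lecko).

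In the summed genes of regulators, stem cells and dermal papilla, control 2 lay within 88.5 to 97.5% of control 1. The 14 hair matrix regulators in the table, among them Bcl11b, Vdr, Cux1 and Ovol1, summed to 549, 526 and 560 CPM (controls) and 497, 590 and 557 CPM (lecko; median log2 difference 0.01, 0 called). The 14 hair cycle signals, among them Axin2, Ptch1, Wnt5a and Bmp2, summed to 257, 251 and 275 against 239, 291 and 298 CPM (median 0.08, 0 called). The 8 follicle stem cell genes, led by Krt15 and Cd34, lay between 1654 and 1957 CPM in controls and between 1653 and 1738 CPM in lecko libraries, and the 11 dermal papilla genes, led by Wif1, between 473 and 583 and between 490 and 662 CPM. The list for companion layer and outer root sheath summed lower in control 2, at 821 CPM against 1076 in controls 1 and 3. It was at 848 CPM in lecko 2 against 1032 and 974 in lecko 1 and 3. Krt79, its largest gene, was at 515, 434 and 543 CPM (controls) and 494, 442 and 540 CPM (lecko). Krt16, a keratin of the outer root sheath and of stressed epidermis, was at 56.9, 15.2 and 32.6 CPM (controls) and 59.5, 29.6 and 17.1 CPM (lecko).

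Markers of the other tissues in the ear were read beside the family, each with all its list genes present and none at 0. The 10 interfollicular epidermis genes, led by Krt10, Krt2, Krt5 and Krt14, lay between 36075 and 40416 CPM in controls and between 34944 and 39144 CPM in lecko libraries. Melanocyte genes (8 of 8), led by Dct, Tyrp1 and Pmel, summed to 204, 232 and 164 CPM (controls) and 213, 239 and 269 CPM (lecko), with control 2 highest of the controls. Skeletal muscle (9 of 9) ranged from 5628 to 6338 and from 4194 to 5401 CPM, leukocytes (7 of 7) from 218 to 332 and from 334 to 438 CPM, and lymphatic endothelium (7 of 7) from 359 to 409 and from 311 to 338 CPM. edgeR called 0 of these genes, with 1 of 10, 0 of 8, 5 of 9, 5 of 7 and 2 of 7 at an unadjusted p under 0.05 in the order given, beside 8.56% of all tested genes. DESeq2 called 1 leukocyte and 1 lymphatic gene and limma-voom 0. Control 2 lay at 95.1% or more of control 1 in all 5 lists, whereas it lay at 14.4% for the 49 Krtap genes. The part of tissue composition in the Krtap values was not tested.

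Promoters of the family shared a motif near the start. RefSeq promoters of GRCm38.p6, from 250 bases before to 50 after the start, were matched for 45 of the 50 genes, the others being Krtap1-3, Krtap7-1, Krtap9-1, Krtap10-10 and Krtap12-1. The 100 bases before the start are shown for Krtap3-2, which held steady, its coding twin Krtap3-3, and Krtap1-5, Krtap8-1 and Krtap4-7, which were low in control 2, all on the minus strand and with TATAAA in capitals. They lie at chr11:99556854-99556953, chr11:99550864-99550963, chr11:99581017-99581116, chr16:89487953-89488052 and chr11:99644090-99644189.
Krtap3-2: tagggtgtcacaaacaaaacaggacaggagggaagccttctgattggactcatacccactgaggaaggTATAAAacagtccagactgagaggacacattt
Krtap3-3: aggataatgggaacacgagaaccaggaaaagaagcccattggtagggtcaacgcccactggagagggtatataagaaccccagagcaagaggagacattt
Krtap1-5: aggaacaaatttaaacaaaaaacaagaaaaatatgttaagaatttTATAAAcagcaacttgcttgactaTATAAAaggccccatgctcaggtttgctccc
Krtap8-1: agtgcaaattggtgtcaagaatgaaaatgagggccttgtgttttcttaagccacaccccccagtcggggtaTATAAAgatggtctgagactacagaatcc
Krtap4-7: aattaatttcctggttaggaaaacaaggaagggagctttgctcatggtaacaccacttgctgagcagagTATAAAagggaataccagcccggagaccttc
TATAAA, searched on both strands, occurred in 37 of the 45 promoters (82.2%), against 13.6% of all 32851 promoters in the table. On the sense strand between 11 and 45 bases before the start it occurred in 28 (62.2%), against 2.22% of all promoters. By class these were 8 of the 16 high glycine-tyrosine, 11 of the 16 matched high sulfur and 9 of the 13 matched ultra-high sulfur genes. Krtap3-2 carries the motif like genes that were low in control 2, and Krtap3-3 has tatataa in its place. Of 7 other words searched on both strands, CTTTGAA occurred in 9 of the 45 (all promoters 5.14%), CTTTGAT in 8.89% (3.73%), CATAAA in 33.3% (11.9%), AATAAA in 24.4% (19.6%), TTTATGG in 8.89% (2.75%), TTTATTG in 0 of the 45 (4.5996%) and CACGTG in 4.44% (7.15%). The first word overlaps the second in its first 6 letters, and a match describes these letters and no bound factor.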

How the data were processed

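The deposited table holds estimated counts per gene for 6 libraries. The unit was read from the values: fractional entries made up 9.60 to 10.5% of each library's genes. Per the submitters' processing notes the tools were RSEM 1.3.1, HISAT2 2.2.1 and Bowtie2 2.4.5, with the build GRCm38.p6. For their roles, the annotation and the strand setting: not given in the sources used here. Without strand, reads of a gene and an overlapping partner cannot be told apart, and 9 members overlap another gene. Of these 9, Krtap4-1 was tested, and Krtap9-3 is given above by its counts. Of the members, 5 have counts that are not whole, and whether shared reads were divided among similar genes was not tested.

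Counts were rounded, filtered (filterByExpr, minimum count 10, minimum total 15), scaled by TMM and tested with edgeR 4.0.16 in R 4.3.3 (quasi-likelihood, robust, no covariate, Benjamini-Hochberg adjustment over all 14856 tested genes, threshold 0.05). CPM are the unrounded counts over the TMM-scaled library size. The filter left out 35 members. DESeq2 1.42.0, limma-voom (limma 3.58.1), other scalings and filters, a replicate block, a Y-linked covariate and leaving out each library were alternatives. The scripts were tested on simulated counts.

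The members and lists were chosen with earlier results of these data known. Classes were to come from RefSeq proteins, and codons of GENCODE vM21 coding sequences were used in their place with the same thresholds, a change made after the count table had been seen. Named genes were, per class, the 8 of highest mean CPM and the 2 tested genes of smallest p, the 10 genes of most similar profile with mean log2 CPM of at least 1 (log2 CPM with a prior count of 2, none for the Krtap sum), and up to 4 genes of highest mean CPM per companion list. One gene that this rule selects is not reported here. Krtap5-2, Krtap5-3, Krtap28-13 and the members without a promoter match are named outside this rule. The sum without Krtap3-2 and its nearest genes, the hair keratins without Krt84, the inner root sheath keratins and the motifs were chosen after seeing the data.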

Additional observations from a re-analysis of the deposited data

How the results depend on the processing

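No alternative called a Krtap gene in either direction, though DESeq2 gave an adjusted p only to Krtap3-2, Krtap3-3, Krtap1-5 and Krtap8-1. The count over all genes was 3 in the chosen fit, 32 with DESeq2 and 3 to 37 with single libraries left out (8 without control 1, 37 without control 2, 6 without lecko 2), and 3 under the other alternatives. The median log2 difference of the tested Krtap genes ranged from 0.15 without control 2 to 1.29 without control 1. It was 0.88 with limma-voom and 0.58 over all 50 genes without a filter. With the Y-linked covariate, which leaves control 1 alone to set against the lecko libraries, it was -0.10. The log2 difference of the sum of all 50 genes was 0.18, and -0.16 with the Y-linked covariate, 0.98 over the 45 members with whole-number counts and 0.99 without the 5 members of highest mean CPM, both of which leave out Krtap3-2. It ranged from 0.01 to 0.36 with single libraries left out. For the 49 genes without Krtap3-2 the value was 0.85, ranged from 0.06 to 1.46 with single libraries left out, and was -0.38 with the Y-linked covariate, 0.98 without Krtap3-3 as well and 0.42 without control 2 and lecko 2, the last settings being chosen after seeing the data. Whether equal replicate numbers pair the samples is not known. Deviations of equal numbers correlated at 0.34, -0.07 and 0.04, which cannot settle it with 3 libraries per group. With a replicate block, which rests on the replicate numbers alone, 0 members and 3 genes were called, and the median of the tested members was 0.67. Of the 15 named and tested members, Krtap3-1, Krtap4-7, Krtap6-5 and Krtap21-1 kept their sign under every alternative that gave them an adjusted p. DESeq2 gave them none and was not counted. Their lowest log2 fold changes, with the Y-linked covariate, were 0.06, 0.29, 0.04 and 0.24 in this order. Depth limits the family: a gene at 0 in a library of these sizes may have had up to 3 counts. All of the 35 members left out by the filter were fitted in the alternative without it, where 0 were called and 0 had an unadjusted p under 0.05 (edgeR). Some of them, such as Krtap16-3 and Krtap22-2, also passed the filter when single libraries were left out.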
